A study of Mus musculus with 20 samples.

Results

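The urea cycle and amino acid catabolism genes Cps1, Otc, Ass1, Asl, Arg1, Gls2, Hal, Sds, Tat and Gldc were examined in liver and, beside it, in subcutaneous white adipose tissue (SAT). These 10 members were chosen by their gene symbols among 40440 entries of the count table, and each symbol matched 1 entry. The mice were male C57BL/6J animals kept on chow until surgery at 8 to 9 months of age. The 4 groups were liver and SAT of mice whose epididymal visceral adipose tissue (VAT) pads were taken out (VAT removed) and liver and SAT of mice that had the abdominal incision alone (sham), with 5 libraries in each group and 20 in all. After surgery every mouse, sham mice included, was given a high-fat diet, so none of the 4 groups shows the chow-fed state. The sources used here give neither the length of the diet nor whether equal library numbers mark the same mouse. Nothing in the labels says that libraries of a group came from separate animals, so each p-value measures the spread between these libraries.

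Breakdown of amino acids releases ammonia, which periportal hepatocytes turn into urea. In the cycle, carbamoyl phosphate made by Cps1 is joined to ornithine by Otc in mitochondria, and Ass1, Asl and Arg1 complete the ring in the cytosol, where Arg1 releases urea and returns ornithine. Around the cycle stand enzymes that open amino acids for use as fuel or for glucose synthesis, and many of these liver genes are known to be induced by fasting, glucagon and glucocorticoids. In textbook physiology adipose tissue has no urea cycle, although it expresses some of the enzymes.

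Total RNA depleted of ribosomal RNA was sequenced to between 20307159 and 43618452 counts per library. Values below are counts scaled to library size by the TMM method, in the usual unit CPM, and differences are log2 differences of VAT removed minus sham from edgeR's quasi-likelihood test over all genes of a tissue. Hepatocyte markers summed to between 64150 and 80009 CPM in VAT removed livers and between 62768 and 86795 CPM in sham livers. In SAT their sum was between 53.7 and 355 CPM with VAT removed and between 70.5 and 656 CPM in sham, most of it Cyp2e1, a cytochrome P450 gene that lay between 35.9 and 333 CPM in VAT removed SAT and between 57.7 and 624 CPM in sham SAT. VAT removed liver library 3 had the lowest total count of the 20 libraries.

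In liver, 1 of the 10 members, Gldc, separated the groups, and it was lower in all 5 VAT removed livers than in any sham liver. The other 9 members overlapped between VAT removed and sham livers, with log2 differences between -0.11 and 0.18 and 95% intervals that all included 0. Over all 17078 genes tested in liver, 1.5% separated the groups as Gldc did, with every VAT removed library below every sham library, and 2.44% separated them in either direction. No member, and no gene at all (0% of those tested), reached an adjusted p under 0.05 in edgeR, while 9.9% of genes had an unadjusted p under 0.05 (5.22% as lower), as did 1 member, Gldc. By DESeq2, 1.43% of 15393 genes passed an adjusted p of 0.05, with 0.851% passing as lower, and Gldc was the 1 member among them. In bulk tissue, fewer cells of a type and less RNA per cell cannot be told apart.

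**Figure D1:**
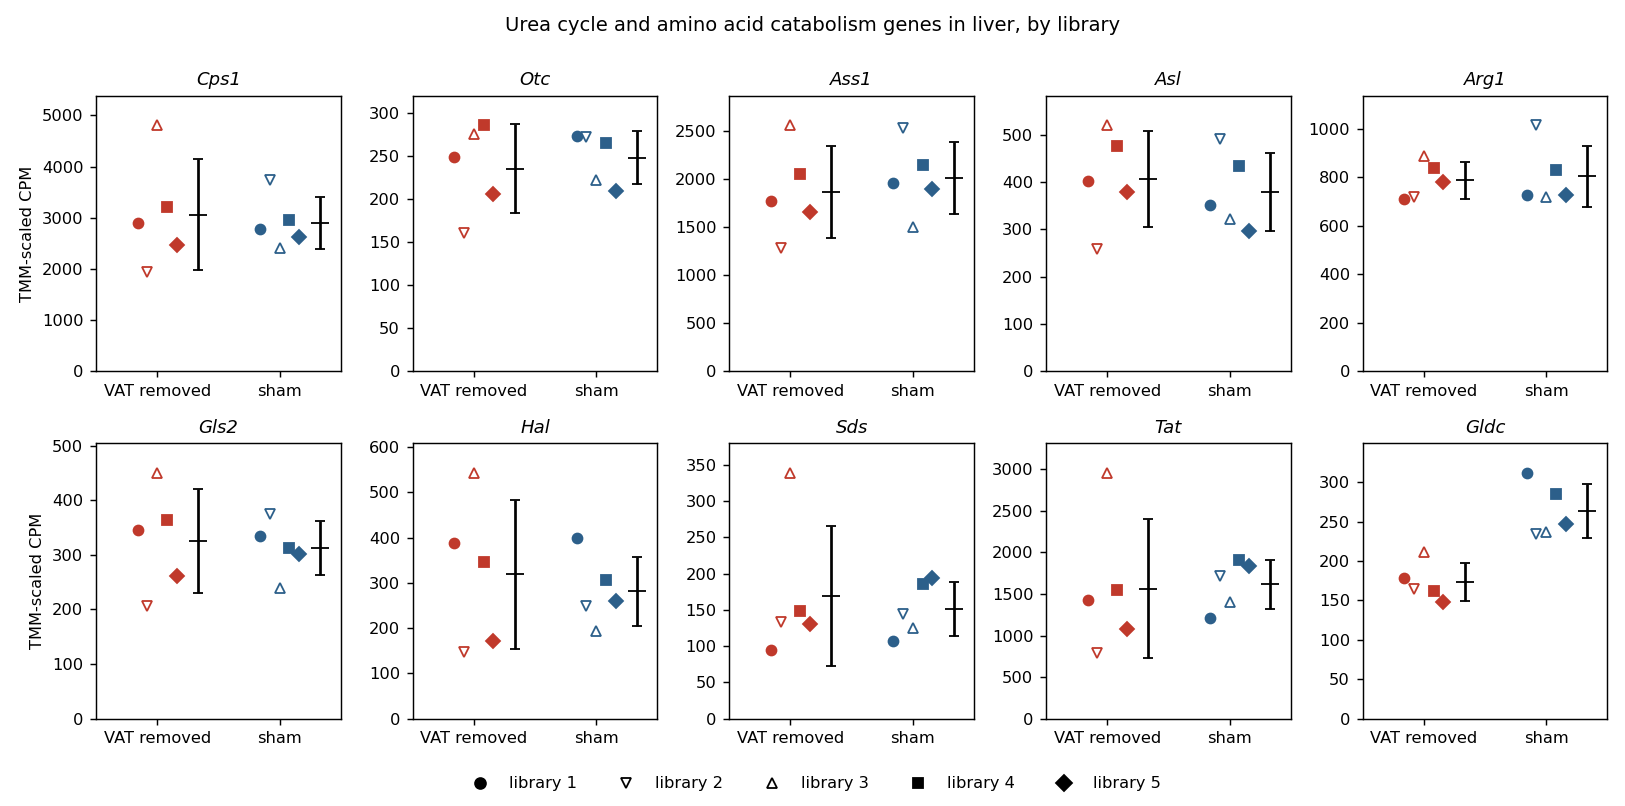
Expression of the 10 members in each liver library in TMM-scaled CPM on a linear axis, with VAT removed libraries left of sham libraries, a marker shape for each library number and bars for the mean ± SD of the 5 libraries. Gldc is the 1 panel in which the groups stand apart (148 to 211 CPM in VAT removed livers, 234 to 312 CPM in sham livers), and library 3 of the VAT removed livers is the top point of its group in 9 panels.

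Gldc encodes glycine decarboxylase, the enzyme of the mitochondrial glycine cleavage system that splits glycine into carbon dioxide, ammonia and a one-carbon unit. The gene lies on chromosome 19 of GRCm38, between 30098447 and 30175429 on the minus strand, with 25 exon blocks and no overlapping gene in GENCODE M21. In VAT removed livers 1 to 5 Gldc stood at 178.5, 164.6, 211.4, 162.0 and 148.3 CPM, and in sham livers 1 to 5 at 312.0, 234.1, 237.2, 285.4 and 247.0 CPM. The highest VAT removed value, that of library 3, lay below the lowest sham value, that of library 2. Means were 172.9 ± 24.0 CPM in VAT removed livers and 263.1 ± 34.1 CPM in sham livers (SD, n = 5 each), a ratio of 0.657 (95% interval 0.552 to 0.782) and a log2 difference of -0.61 ± 0.11 (SE). Its unadjusted p of 0.000215 in edgeR ranked 20 among the 17078 genes, at an adjusted p of 0.184. DESeq2 gave the same log2 difference of -0.61 at an adjusted p of 0.00053, and over the 10 alternatives other than leaving out single libraries its adjusted p ran from 0.00053 to 0.495. Leaving out VAT removed liver library 3, the highest of its group, brought the edgeR adjusted p to 0.031, with a log2 difference of -0.69. That was the 1 of 10 single omissions in which Gldc passed, and the adjusted p ranged up to 0.476 over them.

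The partners of Gldc in the glycine cleavage system did not separate the groups. Amt, the aminomethyltransferase of the system, averaged 56.5 ± 2.84 CPM in VAT removed livers and 52.6 ± 11.8 CPM in sham livers. Gcsh, the lipoyl carrier protein, averaged 57.5 ± 4.02 CPM in VAT removed livers and 54.4 ± 4.10 CPM in sham livers. Dld, the dehydrogenase that also serves pyruvate dehydrogenase, averaged 79.2 ± 5.69 CPM in VAT removed livers and 85.0 ± 6.81 CPM in sham livers. All 3 overlapped between the groups, with log2 differences of 0.10 ± 0.14 for Amt, 0.08 ± 0.07 for Gcsh and -0.10 ± 0.08 for Dld. Whether Gldc differed more than these partners was not tested.

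The genes whose liver pattern was most like that of Gldc, once group means were taken out of the log2 values, were Tnpo3 (r = 0.96 over 10 livers), Sgf29 (r = 0.95) and Dhx16 (r = 0.95), among 8467 genes that averaged 10 CPM or more. Without VAT removed library 3 these values were 0.95, 0.92 and 0.93 over 9 livers, with the group means still taken over all 5 libraries. The points share libraries and their depth, and the likeness is a description.

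Promoter sequences were available for 5 of the 10 members (Ass1, Tat, Hal, Gldc and Otc) in the RefSeq promoter table for GRCm38.p6. The 250 bases before the RefSeq start are shown 5′ to 3′ on the gene's strand for all 5, among them Gldc, the member that separated the groups, and 4 members whose likeness to Cps1 from library to library is described further on. Capitals mark matches, on either strand, to 6 motifs that were searched, and none of the matches overlapped.
Gldc, chr19:30175442-30175691, minus strand: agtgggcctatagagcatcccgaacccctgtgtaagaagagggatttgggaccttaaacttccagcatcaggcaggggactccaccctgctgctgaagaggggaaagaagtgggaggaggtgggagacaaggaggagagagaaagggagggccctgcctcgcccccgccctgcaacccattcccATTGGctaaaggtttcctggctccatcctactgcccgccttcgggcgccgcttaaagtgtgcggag
Ass1, chr2:31470020-31470269, plus strand: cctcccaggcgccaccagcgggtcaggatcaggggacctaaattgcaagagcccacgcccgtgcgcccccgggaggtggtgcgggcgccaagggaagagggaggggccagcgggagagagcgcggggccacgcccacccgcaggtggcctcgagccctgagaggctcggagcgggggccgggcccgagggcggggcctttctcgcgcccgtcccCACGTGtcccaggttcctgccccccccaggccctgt
Otc, chrX:10252055-10252304, plus strand: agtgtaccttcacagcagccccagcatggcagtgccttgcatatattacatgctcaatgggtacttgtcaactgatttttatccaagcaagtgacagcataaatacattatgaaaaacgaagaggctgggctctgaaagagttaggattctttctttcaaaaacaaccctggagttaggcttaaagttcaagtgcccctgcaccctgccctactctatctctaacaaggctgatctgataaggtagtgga
Tat, chr8:109990186-109990435, plus strand: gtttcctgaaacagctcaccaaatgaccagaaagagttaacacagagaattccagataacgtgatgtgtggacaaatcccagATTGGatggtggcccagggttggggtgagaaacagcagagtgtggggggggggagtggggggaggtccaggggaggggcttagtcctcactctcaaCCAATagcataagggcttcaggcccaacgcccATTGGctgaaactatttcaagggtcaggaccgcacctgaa
Hal, chr10:93488518-93488767, plus strand: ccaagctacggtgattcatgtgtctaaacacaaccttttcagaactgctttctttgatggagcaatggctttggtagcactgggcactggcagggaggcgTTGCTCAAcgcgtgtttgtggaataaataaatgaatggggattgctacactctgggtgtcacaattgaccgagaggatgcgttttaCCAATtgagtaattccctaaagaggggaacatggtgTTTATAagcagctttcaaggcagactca
The CCAAT box (CCAAT) occurred 1 time in Gldc, with its first base 66 bases before the start on the opposite strand, 3 times in Tat, at 168, 72 and 40 bases, and 1 time in Hal, at 64 bases. It is found in 33.9% of 32851 promoters of this length. Hal also held the TATA box (TATAAA, in 12.4% of promoters) from 28 to 23 bases before the start, on the opposite strand, and the C/EBP site (TTGCNNAA, in 9.56%) from 150 to 143 bases. The E-box (CACGTG, in 6.02%) occurred in Ass1 alone among the 5, from 36 to 31 bases before the RefSeq start. GENCODE M21 starts Ass1 upstream of that, at 31470207, so by the gene coordinates given below this E-box lies inside the gene. The Otc window held none of the 6 motifs. No match to the cyclic AMP response element half-site (TGACG, in 17.8%) or to the glucocorticoid receptor half-site (TGTTCT, in 16.1%) was present in these 5 windows. A match is a description of letters and not a bound site.

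Of the 5 urea cycle enzymes, none separated VAT removed from sham livers. Cps1, carbamoyl phosphate synthetase and the entry step of the cycle, lies on chromosome 1 between 67123026 and 67231259 (plus strand) with 38 exon blocks. Cps1 stood at 2894, 1933, 4807, 3211 and 2467 CPM in VAT removed livers 1 to 5 and at 2781, 3729, 2414, 2955 and 2614 CPM in sham livers 1 to 5. Both the highest and the lowest of the 10 values belonged to VAT removed livers, libraries 3 and 2. The log2 difference was 0.08 ± 0.22, with a 95% interval from -0.40 to 0.56 and an edgeR adjusted p of 0.941. Otc, ornithine transcarbamylase on the X chromosome (10252305 to 10321024, plus strand), ran from 160.5 through a median of 248.5 to 285.5 CPM in VAT removed livers and from 208.7 through 265.0 to 272.7 CPM in sham livers. Its log2 difference was -0.08 ± 0.15 (-0.41 to 0.26).

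Ass1, argininosuccinate synthetase on chromosome 2 (31470207 to 31520672, plus strand), stood at 1766, 1281, 2557, 2051 and 1652 CPM in VAT removed livers 1 to 5 and at 1958, 2530, 1498, 2146 and 1897 CPM in sham livers 1 to 5. The VAT removed values reached slightly beyond the sham range at both ends. Its log2 difference was -0.11 ± 0.19 (-0.52 to 0.30). Asl, argininosuccinate lyase on chromosome 5 (130011258 to 130029247, minus strand), averaged 407 ± 101 CPM in VAT removed livers and 379 ± 81.7 CPM in sham livers. Its log2 difference was 0.10 ± 0.19 (-0.32 to 0.53). Arg1, the liver arginase on chromosome 10 (24915221 to 24927484, minus strand), ran from 711.4 to 889.3 CPM in VAT removed livers, where it was the most even of the 10 members by its highest over lowest value (1.25), and from 718.5 to 1014 CPM in sham livers (1.41). Its log2 difference was -0.03 ± 0.12, and its interval from -0.29 to 0.23 was the narrowest after that of Gldc. The edgeR adjusted p-values of these 4 enzymes lay between 0.894 and 0.959.

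Among the enzymes that open amino acids, Gls2 is the liver glutaminase that frees ammonia from glutamine. It lies on chromosome 10 between 128194457 and 128210004 (plus strand) and shares 97 exon bases, 2.79% of its exon length, with Spryd4 on the opposite strand. Gls2 averaged 325 ± 94.6 CPM in VAT removed livers and 312 ± 49.8 CPM in sham livers, with a log2 difference of 0.06 ± 0.19 (-0.37 to 0.48). Hal, histidine ammonia-lyase on chromosome 10 (93488768 to 93519304, plus strand), stood at 387.0, 146.6, 543.2, 345.8 and 170.7 CPM in VAT removed livers 1 to 5 and at 398.6, 249.0, 194.0, 305.4 and 260.5 CPM in sham livers 1 to 5. Libraries 2 and 5 of the VAT removed livers lay below every sham liver and library 3 above every one. The log2 difference of Hal was 0.18 ± 0.35 (-0.59 to 0.95).

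Sds, serine dehydratase, turns serine into pyruvate for glucose synthesis. The gene lies on chromosome 5 between 120476526 and 120483932 (plus strand), and 29.6% of its exon length, 501 bases, is shared with Gm15690 and Plbd2 on the opposite strand, whose reads could not be told apart if counting ignored strand. Sds stood at 94.9, 133.7, 338.9, 148.1 and 129.8 CPM in VAT removed livers 1 to 5 and at 107.7, 143.9, 124.3, 185.0 and 193.8 CPM in sham livers 1 to 5. Library 3 alone lay above the sham range and library 1 alone below it. The log2 difference was 0.16 ± 0.32 (-0.56 to 0.88), and without library 3 it was -0.25.

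Tat, tyrosine aminotransferase, opens tyrosine breakdown and is a classic glucocorticoid-induced liver gene. It lies on chromosome 8 between 109990437 and 109999803 (plus strand). Tat stood at 1430, 787.3, 2959, 1553 and 1082 CPM in VAT removed livers 1 to 5 and at 1211, 1713, 1405, 1909 and 1841 CPM in sham livers 1 to 5. Libraries 2 and 5 lay below and library 3 above all sham livers. The log2 difference was -0.05 ± 0.31 (-0.72 to 0.62), and without library 3 it was -0.41. The edgeR adjusted p-values of Gls2, Hal, Sds and Tat lay between 0.912 and 0.973.

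**Figure D2:**
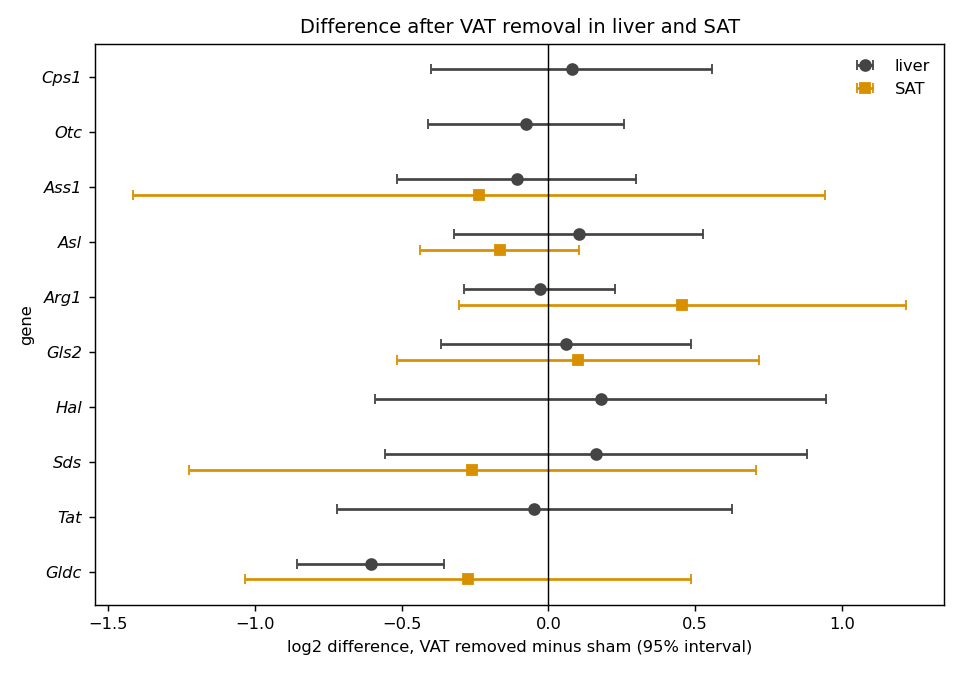
Log2 difference of VAT removed minus sham for each member with its 95% interval, in liver for all 10 members and in SAT for the 6 that passed the filter on low counts, with a vertical line at 0. Gldc in liver, at -0.61 (-0.86 to -0.36), is the 1 interval that leaves out 0.

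Per kilobase of exon, liver levels fell into an upper and a lower set of members in both groups. In VAT removed livers Ass1 averaged 771 ± 198 RPKM (CPM per kilobase of exon), Tat 650 ± 348, Cps1 551 ± 196 and Arg1 353 ± 34.7 RPKM. In sham livers Ass1 averaged 831 ± 156 RPKM, Tat 672 ± 124, Cps1 522 ± 91.0 and Arg1 361 ± 56.9 RPKM. Below a gap that no library bridged came Sds at 99.8 ± 57.2 RPKM, Gls2 at 93.7 ± 27.2, Asl at 84.3 ± 20.9, Hal at 57.4 ± 29.5, Otc at 55.5 ± 12.2 and Gldc at 28.4 ± 3.94 RPKM in VAT removed livers. In sham livers the lower set was Gls2 at 89.9 ± 14.3 RPKM, Sds at 89.1 ± 22.1, Asl at 78.5 ± 16.9, Otc at 58.5 ± 7.19, Hal at 50.7 ± 13.8 and Gldc at 43.2 ± 5.60 RPKM. Apart from the gap below Arg1, neighbours in this order overlapped over their 5 libraries, except Otc and Gldc in VAT removed livers. Together the 10 members took between 0.593% and 1.32% of all counts in VAT removed livers and between 0.716% and 1.10% in sham livers.

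Within a group, several libraries held most or all members above or below the group mean together. VAT removed library 3 lay above its group mean for 10 of 10 members and was the highest of all 10 livers for 7 of them. Library 2 lay below its group mean for 10 of 10 and was the lowest of all 10 livers for 7. The median deviation of the members from their group mean was 0.51 in library 3 and -0.56 in library 2 on the log2 scale. Over all genes the median was at most 0.01 in size in every liver library, but TMM scaling sets that value near 0. It is thus no measure of whether the shift was particular to the members. Sums of other gene lists in these libraries are given below. Sds at 1.15, Tat at 1.07, Hal at 0.94 and Cps1 at 0.72 lay farthest above the group mean in library 3. Among sham livers, library 4 was above its group mean and library 3 below it for 10 of 10 members, at smaller medians of 0.12 and -0.23.

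**Figure D3:**
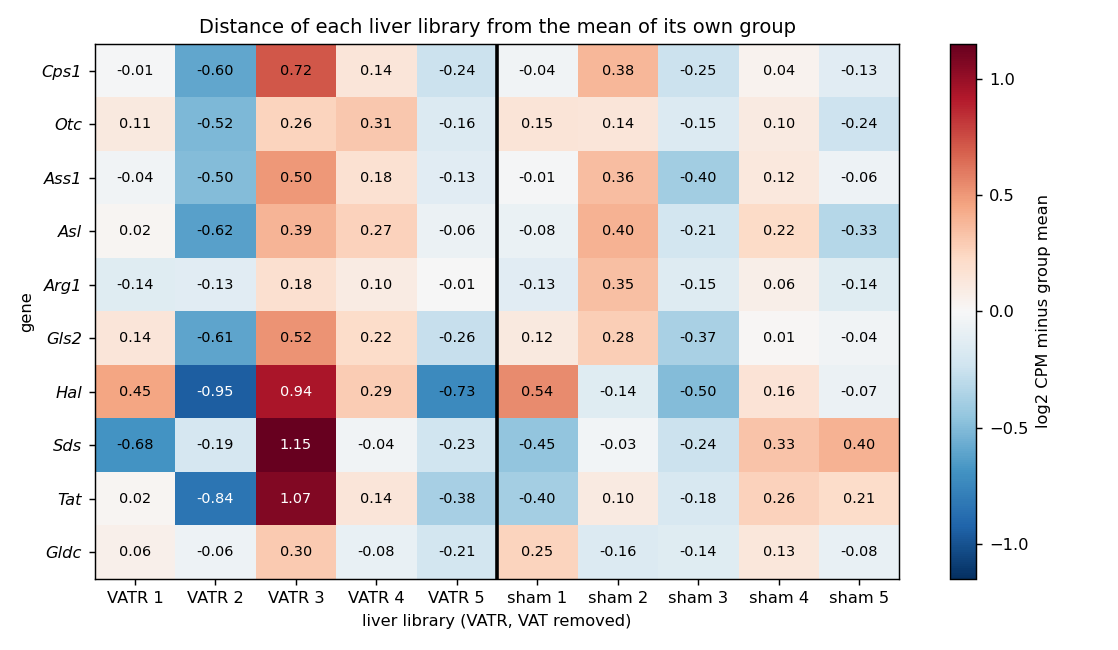
Heat map of the deviation of each member (rows) from its group mean in each liver library (columns), in log2 CPM, with VAT removed livers (VATR) left of sham livers and red for values above the mean. All members are above 0 in VAT removed library 3 and sham library 4, and all are below 0 in VAT removed libraries 2 and 5 and sham library 3.

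The SD of log2 CPM was larger in VAT removed livers than in sham livers for 9 members, by little for Gldc (0.19 in VAT removed livers, 0.18 in sham livers), and smaller for Arg1 (0.14 in VAT removed livers, 0.21 in sham livers). Within VAT removed livers it had a median of 0.42 over the members (0.14 to 0.81), beside 0.25 over all 17078 genes and 0.16 over the 1523 genes of at least 100 CPM. In sham livers the median over the members was 0.26 (0.18 to 0.38), beside 0.23 and 0.16. The member with the largest SD in both groups was Hal, whose highest value was 3.71 times its lowest in VAT removed livers and 2.05 times in sham livers. For Tat these ratios were 3.76 in VAT removed livers and 1.58 in sham livers. Whether the spread differed between the groups was not tested.

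Other genes also varied between the VAT removed livers. Library 2 was an extreme of that group in the cholangiocyte, stellate cell and fasting target sums below, and library 3 in the last alone. Summed genes of aromatic amino acid breakdown were highest in library 3 (6750 CPM) and lowest in library 2 (3389 CPM). Sham livers ran from 4407 to 5655 CPM. Of the lists read further on, the sulfur, nitrogen entry, branched-chain, regulator and pericentral sums had the same highest and lowest libraries. Library 3 was lowest for hepatocyte markers and other periportal genes, and no extreme for serine, glycine and histidine breakdown. Summed cholangiocyte markers, mostly Spp1, stood at 27.4, 223.4, 34.6, 57.4 and 138.4 CPM in VAT removed livers 1 to 5 and between 37.0 and 88.1 CPM in sham livers, so the highest sums were in libraries 2 and 5, in which the members were low. Summed stellate cell markers were highest in library 2, at 543 CPM, against 276 to 436 CPM in the other VAT removed livers and 275 to 403 CPM in sham livers. Targets of glucagon, glucocorticoids and fasting summed to 3323, 2569, 5523, 4929 and 4097 CPM in VAT removed livers 1 to 5 and to between 2967 and 4364 CPM in sham livers. Most of this sum in each VAT removed liver was 1 gene, Pck1, the gluconeogenic enzyme of that list, so the sum largely follows Pck1. Pck1 stood at 2493, 1574, 4306, 4090 and 3064 CPM in VAT removed livers 1 to 5 and between 1918 and 3291 CPM in sham livers. Its lowest and highest values thus fell in the same libraries as those of Cps1. The part of these genes, and of the low depth of library 3, in the spread of the members was not tested.

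Cps1 served as the point of comparison for likeness among members, with group means taken out. Over 10 livers the genes most like Cps1 were Gpat4 (r = 0.96), Ass1 (r = 0.96) and Dbt (r = 0.95). Of the other members, Gls2 at r = 0.94 ranked 5, Asl at 0.90 ranked 31, Tat at 0.89 ranked 41 and Otc at 0.83 ranked 124 among 8467 genes. Hal was at 0.78 and Arg1 at 0.76. Sds, at 0.61, and Gldc, at 0.47, were least like Cps1, and without VAT removed library 3 they were at 0.15 and 0.09.

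The wider pathways around the members were read in liver from lists of genes. In each list edgeR called 0 genes at an adjusted p under 0.05, and DESeq2 called 0 in each list but that of regulators, where it called 1. Over all genes DESeq2 called 1.43% of 15393 in liver. Of 20 genes of nitrogen entry and urea cycle support, 0 had an unadjusted p under 0.05 and 11 were higher in VAT removed livers. Their median log2 difference was 0.03. Over all 17078 genes tested in liver, 8913 were higher, at a median of 0.01. The 12 genes of serine, glycine and histidine breakdown and the 12 of sulfur amino acids and one-carbon transfer likewise had 0 genes under 0.05, at medians of 0.01 and 0.03. Among 14 genes of aromatic amino acid breakdown 2 had an unadjusted p under 0.05, both lower, at a median of -0.01. They were Tdo2, the tryptophan dioxygenase gene, at a log2 difference of -0.57 ± 0.26 (edgeR adjusted p 0.493), and Kynu, the kynureninase gene, at -0.36 ± 0.15 (0.464). Among 23 tested genes of branched-chain and lysine breakdown Bcat2, the mitochondrial branched-chain aminotransferase, was the 1 under 0.05, at 0.30 ± 0.13 (0.498). Over all genes the share under 0.05 was 9.9%.

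The hormonal and transcriptional regulators of these genes numbered 16, of which 15 had positive log2 differences at a median of 0.11. Over all 17078 genes tested in liver, 8913 were positive, at a median of 0.01. The regulators were read in the same 10 livers, so their signs are not separate observations. Of the 16 regulators, 1, Onecut1, had an unadjusted p under 0.05 in edgeR, beside 9.9% of all genes. Onecut1 encodes the hepatocyte transcription factor HNF6. It stood at 33.0, 17.3, 64.1, 29.1 and 36.9 CPM in VAT removed livers 1 to 5 and at 21.3, 21.8, 8.23, 9.31 and 8.93 CPM in sham livers 1 to 5. Library 2 of the VAT removed livers lay inside the sham range and the other 4 above it. The log2 difference was 1.37 ± 0.40, with an adjusted p of 0.310 in edgeR and 0.0225 in DESeq2. Among 10 targets of glucagon, glucocorticoids and fasting, with a median of -0.19, Dusp1, a stress-induced phosphatase gene, was the 1 under 0.05, at -0.43 ± 0.17 (edgeR adjusted p 0.458).

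Of 8 other periportal hepatocyte genes, 1 had an unadjusted p under 0.05, at a list median of -0.14. Cyp2f2, a periportal cytochrome P450 gene, stood at 312.7, 421.9, 663.9, 515.1 and 549.4 CPM in VAT removed livers 1 to 5 and at 674.5, 971.4, 684.5, 688.5 and 783.9 CPM in sham livers 1 to 5. The groups did not overlap. Its log2 difference was -0.63 ± 0.19, with an adjusted p of 0.309 in edgeR and 0.0667 in DESeq2. Of 11 pericentral genes, the opposite end of the lobule, 0 had an unadjusted p under 0.05, at a median of -0.05. Among marker lists of other cell types, 6 Kupffer cell genes had a median log2 difference of 0.91 and 5 cholangiocyte genes one of 0.61 in liver, with 1 and 0 genes at an unadjusted p under 0.05. The 6 lymphocyte genes had a median of 0.76, with 3 higher at an unadjusted p under 0.05, and summed to 5.22 to 13.6 CPM in VAT removed livers and 4.13 to 8.67 CPM in sham livers. The summed Kupffer cell level went the other way from the median of its genes, with a median of 289 CPM in VAT removed livers (203 to 557) and 347 CPM in sham livers (215 to 414). Of 7 hepatocyte markers, at a median of -0.06, 1 was higher at an unadjusted p under 0.05 and 1 higher without overlap of the groups. The 6 endothelial genes had a median of 0.14, with 1 higher at an unadjusted p under 0.05. The 5 cholangiocyte genes were all higher, as were 5 stellate cell genes, at a median of 0.26 for the latter with 0 under 0.05. Of 6 macrophage genes tested, 4 were higher, at a median of 0.21, with 0 under 0.05. The 5 erythroid genes were all lower, at a median of -0.07, with 0 under 0.05. Over all genes 9.9% had an unadjusted p under 0.05 and 2.44% separated the groups. Both edgeR and DESeq2 called 0 genes in these lists.

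In SAT, 6 members passed the filter on low counts (Ass1, Asl, Arg1, Gls2, Sds and Gldc) and 4 did not (Cps1, Otc, Hal and Tat). Summed over 5 libraries, VAT removed SAT had 15 counts of Cps1, 6 of Otc, 2 of Tat and 62 of Hal, and sham SAT had 6 counts of Cps1, 2 of Otc, 4 of Tat and 45 of Hal. A library at 0 allows up to 3 counts, by counting error alone. The 10 members together took between 0.00351% and 0.00579% of counts in VAT removed SAT and between 0.00532% and 0.00733% in sham SAT. All 6 tested members overlapped between the groups. By edgeR 0 of them were called and 0 had an unadjusted p under 0.05, beside 0% and 10.6% of 18530 genes tested in SAT. By DESeq2 0 of the members passed, beside 0.894% of 17672 genes, and 1.44% of genes separated the groups in either direction.

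Per kilobase of exon Ass1, Asl and Gldc had the highest levels in SAT, with means of 6.40, 3.06 and 2.62 RPKM in VAT removed SAT and 7.53, 3.43 and 3.18 RPKM in sham SAT. Ass1 stood at 26.8, 12.3, 5.46, 16.8 and 15.8 CPM in VAT removed SAT 1 to 5 and at 17.4, 6.01, 38.0, 21.8 and 7.66 CPM in sham SAT 1 to 5. Its log2 difference was -0.24 ± 0.53 (edgeR adjusted p 0.906). Asl averaged 14.8 ± 2.42 CPM in VAT removed SAT and 16.6 ± 1.60 CPM in sham SAT, a log2 difference of -0.17 ± 0.12 with an interval from -0.44 to 0.10. Gldc stood at 11.4, 11.8, 25.8, 14.5 and 16.5 CPM in VAT removed SAT 1 to 5 and at 19.4, 30.4, 9.36, 11.5 and 26.1 CPM in sham SAT 1 to 5. Its VAT removed values all lay inside the wider sham range, at a log2 difference of -0.27 ± 0.34 (-1.04 to 0.49, edgeR adjusted p 0.812). Arg1, also a marker of alternatively activated macrophages in mice, averaged 1.13 ± 0.317 CPM in VAT removed SAT and 0.819 ± 0.321 CPM in sham SAT, a log2 difference of 0.46 ± 0.35. Gls2 and Sds stayed at or below 1.30 CPM in every SAT library.

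**Figure D4:**
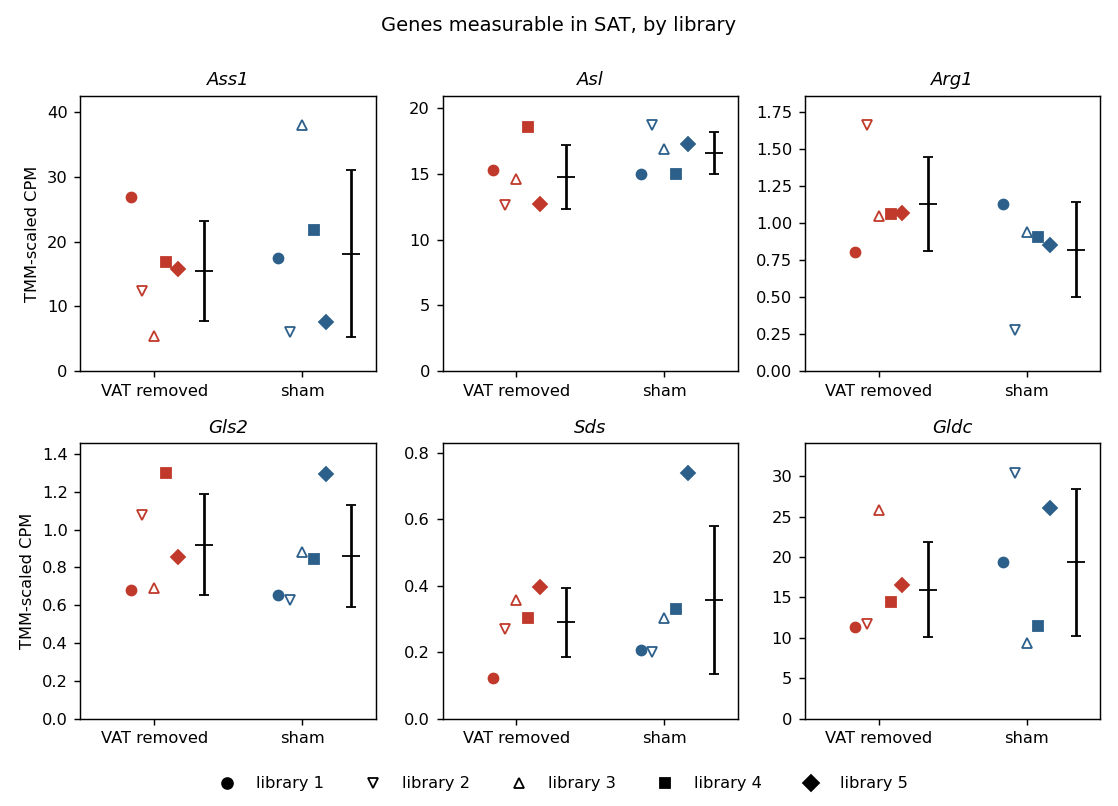
Expression of the 6 members that passed the filter in SAT, by library, in TMM-scaled CPM on linear axes, VAT removed left of sham, with bars for the mean ± SD of 5 libraries. The groups overlap in all 6 panels, and among sham libraries Gldc is lowest in 3 and 4.

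Libraries 3 and 4 of sham SAT stood apart by other cell types. Their summed lymphocyte markers were 431 and 433 CPM, against 7.02 to 10.2 CPM in VAT removed SAT and 5.77 to 9.10 CPM in the other sham SAT libraries. Their summed adipocyte markers were 10090 and 9033 CPM, against 12958 to 17782 CPM in VAT removed SAT and 15803 to 19097 CPM in the other sham SAT libraries. These were the sham libraries with the highest Ass1 and the lowest Gldc. Without both, the log2 difference was 0.57 for Ass1 and -0.66 for Gldc, at edgeR adjusted p-values of 0.758 and 0.561. Summed skeletal muscle markers ran from 27.8 to 22917 CPM in VAT removed SAT, highest in library 2, and from 13.5 to 1856 CPM in sham SAT, and their part in the member values was not tested.

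The pathway lists in SAT had 0 calls by edgeR and 0 by DESeq2. Genes of these lists with an unadjusted p under 0.05 numbered 1 of 18 for nitrogen entry and urea cycle support, 0 of 7 for serine, glycine and histidine breakdown, 2 of 10 for aromatic breakdown, 1 of 8 for sulfur amino acids and one-carbon transfer, and 2 of 22 for branched-chain and lysine breakdown. Over all genes the share was 10.6%.

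The difference of response between the tissues, the liver log2 difference minus that in SAT, was tested in 1 fit of all 20 libraries. For Gldc it was -0.33 ± 0.38 with an interval from -1.12 to 0.46 (edgeR adjusted p 0.808), so the responses of Gldc in liver and SAT were not distinguished from each other. Without sham SAT libraries 3 and 4 this difference turned to 0.070, and leaving out single libraries gave -0.56 (without sham SAT library 2) to -0.088 (without VAT removed SAT library 3). For Ass1 the difference was 0.13 ± 0.58, for Asl 0.27 ± 0.24, for Arg1 -0.48 ± 0.33, for Gls2 -0.05 ± 0.32 and for Sds 0.38 ± 0.59, with edgeR adjusted p-values between 0.634 and 0.984. Of the 19954 genes in that fit, edgeR called 0%, 10.1% had an unadjusted p under 0.05, and DESeq2 called 0.624% of 19866, in each case with 0 of these 6 members among them.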

How the data were processed

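The values analysed are the authors' raw counts per gene, deposited as 1 table of 20 libraries without normalization. The submitters' processing notes name bcl2fastq, STAR 2.5.1a, GRCm38 and featureCounts 1.46 of Subread. Annotation, strand setting and treatment of multiply mapped reads are not given there. Of 40757 entries, 317 exact repeats were dropped. Of counts from 1 to 10, 69.4% were even (51.1% from 100 to 200), so low counts may come in pairs and counting error may be larger than the floor of 3 counts implies.

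Groups came from the sample titles. Each tissue was fitted in edgeR 4.0.16 (R 4.3.3) with filterByExpr, TMM scaling and a robust quasi-likelihood F-test, with Benjamini-Hochberg adjustment over all genes and a threshold of 0.05. SEs come from the F statistic. Alternatives were DESeq2 1.42.0, limma-voom (limma 3.58.1), other scalings and filters, 1 fit of all libraries, a library-number block and left-out libraries. Coordinates and exon lengths are from GENCODE M21 by symbol.

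The members and all lists were chosen with earlier results of these data known. Named beside the members are genes of the lists other than cell type markers with an adjusted p under 0.05. With none, up to 3 each way with an unadjusted p under 0.05 in liver are named. Marker genes were counted and summed, and were not named by this rule. The 3 genes most like Gldc and Cps1 are named as well. The glycine cleavage partners, Pck1, Spp1 and Cyp2e1 were chosen after their values were seen.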

Additional observations from a re-analysis of the deposited data

Results flagged for a closer look

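Of 32 sets of 5 libraries of a member in a group, 2 held a library far from the others, measured as the gap to the nearest library over the range of the group with a critical value of 0.71. Chance alone gives about 1 such set in 20. In VAT removed livers Sds stood at 338.9 CPM in library 3, and the next value was 148.1 CPM, a gap of 0.782 of the range. In sham SAT Sds stood at 0.740 CPM in library 5, and the next value was 0.331 CPM, a gap of 0.757 of the range.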

How the results depend on the processing

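Of 492 values recomputed under an alternative for the members, 454 kept their direction and side of the threshold, 2 newly passed it and 36 turned direction; the causes were not tested. Genes called in liver numbered 0 in edgeR, 220 by DESeq2, 3 each by limma-voom, without the filter and with 1 CPM in 5 libraries, 27 in 1 fit of all 20 libraries and 43 without VAT removed libraries 2 and 3, a setting chosen after seeing the data. Members called in liver numbered 1, Gldc, by DESeq2. DESeq2 called 158 genes in SAT and 124 for the difference of response. Without VAT removed liver libraries 2 and 3 the log2 difference was -0.022 for Cps1 and -0.28 for Sds. Without sham SAT libraries 3 and 4 it was 0.57 for Ass1 in SAT, and the difference of response was -0.66 for Ass1 and 0.070 for Gldc. Leaving out single libraries gave 0 to 53 called genes in liver (53 without VAT removed library 3) and 0 to 1 called members, 0 to 1 genes in SAT (1 without sham library 5) and 0 to 3 for the difference (3 without VAT removed liver library 3). The liver log2 differences then ran from -0.14 to 0.21 for Cps1, -0.16 to 0.033 for Otc, -0.25 to 6.9e-05 for Ass1, -0.0015 to 0.23 for Asl, -0.078 to 0.068 for Arg1, -0.088 to 0.18 for Gls2, -0.10 to 0.36 for Hal, -0.25 to 0.31 for Sds, -0.41 to 0.12 for Tat and -0.69 to -0.54 for Gldc, whose adjusted p ran from 0.031 to 0.476. In SAT they ran from -0.53 to 0.21 for Ass1, -0.057 to 0.29 for Gls2 and -0.42 to 0.17 for Sds, and for the difference of response from -0.33 to 0.42 for Ass1, -0.23 to 0.12 for Gls2 and -0.019 to 0.54 for Sds. Other members kept their sign there.

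Equal library numbers were not treated as pairs, since the labels do not say what they mark. Correlations of deviations between same-numbered libraries were computed as a description. Between VAT removed and sham livers these were -0.05 to 0.19, with 4 of 5 over 0.1 and 4 of 5 libraries most like their own number. The source of this pattern is not in the design and was not tested. Between liver and SAT they were 0.03 to 0.09 with VAT removed, with 3 of 5 livers most like their own number. In sham they were -0.17 to 0.10, with 0 of 5 most like their own. Between VAT removed and sham SAT they were -0.22 to 0.31, with 2 of 5 over 0.1 and 2 of 5 most like their own. With the number as a block 0 genes were called in liver, SAT or the difference, and Ass1 was at 0.0071 in SAT and -0.065 for the difference of response. Gldc in liver was then at -0.61, at an edgeR adjusted p of 0.251. With the filter of 1 CPM in 5 libraries Gls2 and Sds had no value in SAT. Cps1, Otc, Hal and Tat failed the main SAT filter and by choice were not read out there under any setting. Those 4 genes had 62 counts or fewer per group in SAT, where libraries held 27411596 to 43618452 counts. Relative counting error is thus larger for their SAT values than for any liver value of the members.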
